A study of Mus musculus with 12 samples.

Results

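Methylation of CpG sites was compared between spermatozoa from the caput epididymidis and spermatozoa from the testis. The series held 12 samples, 3 each from the testis and the caput, corpus and cauda epididymidis, and the 6 caput and testicular samples were taken by their group labels. All groups came from untreated B6D2F1- mice aged 10 to 12 weeks with the transgenes Tg(CAG/su9-DsRed2, Acr3-EGFP)RBGS002Osb, in which CAG drives a mitochondrial DsRed2 and Acr3 an acrosomal EGFP. Spermatozoa positive for both GFP and DsRed were sorted by FACS, and each sample was a pool of mice. The paper describes the testis and the epididymal segments as dissected from pooled mice, so the same mice may have given several segments. The labels do not say so. P-values of tests on samples measure only the spread between these pooled samples, which may be technical. P-values of tests on reads cover counting error only.

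Cytosines that precede guanines carry most methylation of mammalian DNA, and this mark at CpG-rich promoters goes with silent genes. Sperm DNA is highly methylated outside CpG-rich promoters, and many genes of the germ line are methylated in somatic cells and unmethylated in sperm. On its way from the testis, a spermatozoon crosses the caput, the corpus and then the cauda of the epididymis, with its DNA already tightly packed. Reduced representation bisulphite sequencing (RRBS) reads the part of the genome near cutting sites of a restriction enzyme and gives, at each CpG, the reads that kept a cytosine and all reads.

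The table held 14149 sites with at least 10 reads in each sample, and 13917 of them on autosomes, in 13891 CpGs, were compared. The reads over the autosomal sites numbered 633674, 852200 and 695526 in caput replicates 1, 2 and 3, and 931616, 993646 and 866593 in testicular replicates 1, 2 and 3. The median number of reads per site was 30, 41 and 33 for caput and 44, 53 and 45 for testicular spermatozoa. The methylation level of a site is the percent of its reads that kept the cytosine, and values of samples are given below in the order of replicates 1, 2 and 3. A level is a mean over the DNA molecules of a pool, so a partial change in every cell and a full change in some cells cannot be told apart.

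Caput replicate 1 stood apart from the other caput samples. Across the autosomal sites its level correlated with those of caput replicates 2 and 3 at Pearson r of 0.872 and 0.857, while replicates 2 and 3 correlated with each other at 0.944 and the testicular samples with one another at 0.977 to 0.985. These correlations run over 13917 sites that share libraries and neighbouring reads, and they serve as description only. The median within-site SD was 4.87 percentage points over the 3 caput samples and 2.41 points over the 3 testicular samples. Over replicates 2 and 3 alone it was 2.38 points in caput and 1.57 points in testicular spermatozoa. For this reason many results are given for the 3 caput samples and also without caput replicate 1, and the others are for all 3 caput samples.

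The labels were compared with sites of genes whose methylation in sperm is known. One site lay inside the gene of H19, an imprinted transcript methylated on the paternal chromosome (GRCm38, chr7:142575529-142578143). At this site, position 142575817, methylation was 87.1%, 93.2% and 93.7% in the caput samples and 97.8%, 96.7% and 92.8% in the testicular samples, with 142 to 270 reads per sample. The means of 91.3% ± 3.68 (SD, n = 3) and 95.7% ± 2.60 (SD, n = 3) overlapped in range, and both groups were highly methylated as in cauda spermatozoa (mean 98.1%). Promoters of germline genes gave another picture. Over 19 sites of 10 such genes, mean methylation was 67.6%, 43.5% and 49.7% in the caput samples and 12.7%, 11.4% and 12.0% in the testicular samples. D1Pas1, among these genes, was picked by the study from these samples. Thus the caput samples were highly methylated at this H19 site but lacked the low germline promoter level of the testicular samples. The series held no somatic sample, so this site cannot tell sperm DNA from other DNA. The caput samples are named below by the segment on their label.

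Mean methylation over all autosomal sites was 53.4%, 51.0% and 50.9% in the caput samples and 47.9%, 49.1% and 48.7% in the testicular samples. All caput values lay above all testicular values. The means were 51.8% ± 1.37 (SD, n = 3) and 48.6% ± 0.606 (SD, n = 3), a difference of 3.19 percentage points (2-sided exact permutation p 0.1, the smallest that 3 samples against 3 can give). Without caput replicate 1 the difference was 2.40 points (exact p 0.1, again the smallest possible), and caput replicate 1 alone was 4.77 points above the testicular mean. The difference depended on the summary, at 14.9 points for the median over sites and 1.74 points for the sum of all reads.

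This small rise of the mean went with a loss of both extremes of the distribution. Sites from 20% to 80% made up 21.04%, 23.99% and 22.63% of all sites in the caput samples and 12.04%, 11.04% and 11.12% in the testicular samples. Sites below 20% made up 35.8%, 36.6% and 37.4% in the caput samples, against 45.5%, 44.6% and 45.1% in the testicular samples. The share above 80% was 43.2%, 39.4% and 39.99% in caput and 42.4%, 44.4% and 43.8% in testicular spermatozoa. Caput replicates 2 and 3 lay below all testicular samples in this last class, and caput replicate 1 lay among them. In the cauda samples 10.9%, 11.1% and 10.9% of sites were between 20% and 80%, close to the testicular shares. The corpus samples had 18.3%, 20.4% and 18.5%, between the testicular and the caput shares.

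**Figure D1:**
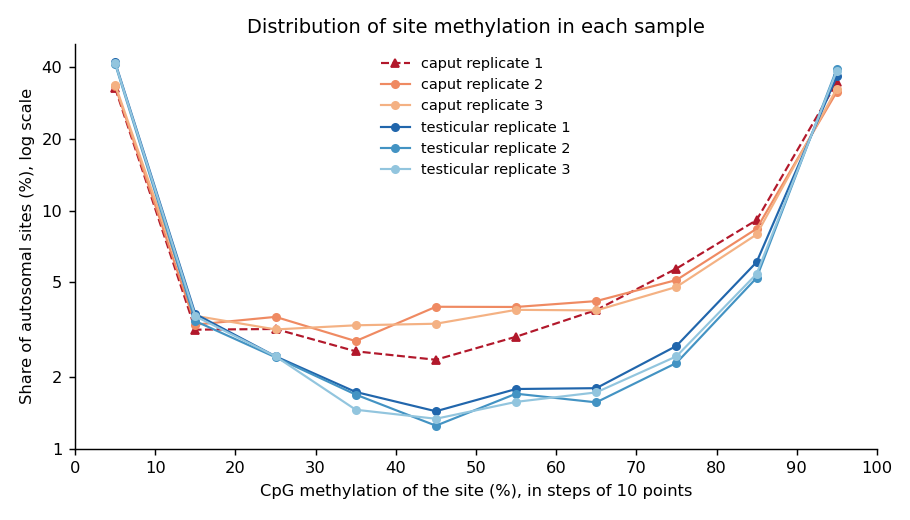
Share of autosomal sites (log scale) in each step of 10 percentage points of methylation, with 1 line per caput or testicular sample. Sites at 40% to 50% made up 2.36%, 3.94% and 3.35% of sites in caput replicates 1, 2 and 3 and 1.44%, 1.25% and 1.34% in the testicular samples.

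Sites were next divided by their mean level in cauda spermatozoa, which took no part in the comparison. At the 6365 sites below 20% in cauda, methylation was 19.3%, 10.49% and 10.1% in the caput samples and 2.57%, 3.15% and 2.89% in the testicular samples. At the 6098 sites above 80% in cauda, it was 84.3%, 90.8% and 91.8% in caput and 95.1%, 95.7% and 95.6% in testicular spermatozoa. In both classes caput levels were moved toward the middle of the scale, and caput replicate 1 lay farthest from the testicular samples. The difference was 10.4 points below 20% (7.43 without caput replicate 1) and -6.49 points above 80% (-4.17 without it). At the 1454 sites between 20% and 80% in cauda, the caput values of 72.4%, 61.5% and 58.4% again lay above the testicular values of 48.7%, 54.7% and 52.8%. That difference was 12.0 points, or 7.90 points without caput replicate 1. The exact permutation p was 0.1 in each of these 3 classes, the smallest the design allows. Medians over sites differed by 0 points below 20%, -1.20 points above 80% (exact permutation p 0.3) and 17.0 points between them (exact permutation p 0.1).

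By annotation, sites were assigned to promoters (within 2000 bp of the start of a protein-coding transcript), exons, introns or intergenic DNA. Promoter sites (5082) had levels of 19.3%, 17.1% and 17.0% in the caput samples and 15.3%, 15.5% and 15.5% in the testicular samples. Exon sites (832) had 78.9%, 74.9% and 74.6% in caput and 68.9%, 70.5% and 70.8% in testicular spermatozoa. Intergenic sites (5191) had 69.8%, 65.2% and 64.9% in caput and 59.7%, 61.7% and 60.9% in testicular spermatozoa. In these 3 classes the caput and testicular ranges did not overlap, and caput replicate 1 was the highest sample. The differences were 2.38 points in promoters, 6.03 in exons and 5.89 in intergenic DNA, and 1.61, 4.65 and 4.33 points without caput replicate 1 (each exact permutation p 0.1). These rises were of the mean over sites, since medians differed by 0 points in promoters, -2.96 in exons (exact permutation p 0.1) and -2.98 in intergenic DNA (exact permutation p 0.3). Introns (2812 sites) had overlapping values of 77.0%, 79.1% and 79.5% in caput and 79.1%, 80.2% and 80.02% in testicular spermatozoa. Their difference of -1.18 points (exact p 0.3), or -0.413 points without caput replicate 1 (exact p 0.5), was not larger than the caput SD of 1.35. For introns the median over sites differed by -3.72 points and the sum of all reads by -1.27 points (each exact permutation p 0.1).

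**Figure D2:**
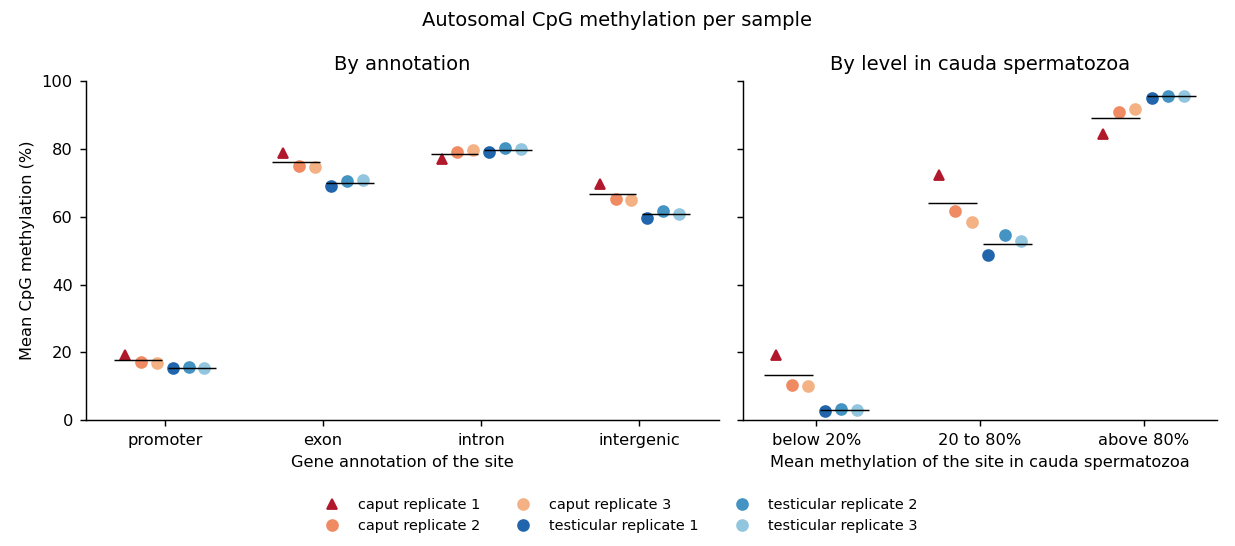
Mean CpG methylation (%) per sample over autosomal sites, by gene annotation and by the level of the site in cauda spermatozoa, with triangles for caput replicate 1, circles for the other samples and lines for group means. At sites below 20% in cauda the caput samples sit at 19.3%, 10.49% and 10.1% and the testicular samples between 2.57% and 3.15%.

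Means in repeats and in CpG-dense DNA were also higher in caput spermatozoa. Sites in repeats (2206) averaged 65.0% in caput and 59.8% in testicular spermatozoa, and sites in unique sequence (11711) 49.3% and 46.5%. In CpG-dense DNA, with more than 50% GC and an observed to expected CpG ratio above 0.6 over 200 bp, 3746 sites had 24.7%, 21.9% and 21.4% in caput and 18.5%, 19.4% and 19.07% in testicular spermatozoa. The other 10171 sites averaged 62.5% and 59.5%. Medians over sites differed by 0.114 points in repeats, 22.9 in unique sequence, 0 in CpG-dense DNA and -7.50 at the other sites. Over all annotation classes and these context classes, every exact permutation p for means over sites but that of introns was 0.1, or 0.114 after Benjamini-Hochberg adjustment. With all reads summed, the difference was 3.95 points in exons (exact p 0.2), 2.22 in CpG-dense DNA (exact p 0.2) and 1.09 in unique sequence (exact p 0.5), and the groups overlapped.

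Single sites were then compared by logistic regression on the methylated and unmethylated reads of each site. Sites were called where the adjusted p was below 0.01 and the pooled reads differed by more than 25 percentage points. In caput spermatozoa 1608 of 13917 sites (11.6%) were called higher and 735 (5.28%) lower. Without caput replicate 1, 1180 sites (8.48%) were higher and 475 (3.41%) lower. Each caput sample alone against the testicular samples, which all of these comparisons share, gave 2148 higher and 1294 lower sites for replicate 1, 1184 and 585 for replicate 2, and 1077 and 511 for replicate 3. This model takes each read as independent and holds no term for the spread between samples, so all of these counts cover counting error only.

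A test that uses the spread between samples called far fewer sites. Limma on the log2 ratio of methylated to unmethylated percent called 8 sites (0.0575%) higher and 4 (0.0287%) lower, and at an adjusted p under 0.05 it gave 64 and 29. Without caput replicate 1, a setting chosen after seeing the data, limma called 20 sites higher and 17 lower. At an unadjusted p under 0.05 limma gave 2510 sites. In simulated reads of this number of samples, with 200 of 14149 sites changed and no added spread between samples, limma found 67 of them. Those settings differ from these data, so the simulation cannot tell why limma called few sites here. By the plain order of values, all 3 caput samples lay above all 3 testicular samples at 1974 sites (14.2%) and below them at 1126 sites (8.09%).

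At the sites called higher, mean levels were 80.4%, 47.5% and 45.6% in the caput samples and 12.9%, 14.3% and 13.9% in the testicular samples. At the sites called lower, they were 29.0%, 61.6% and 65.4% in caput and 90.7%, 92.3% and 92.1% in testicular spermatozoa. These sites were picked for their difference, so the values describe its size. Caput replicates 2 and 3 lay near the middle of the scale in both sets, and caput replicate 1 lay toward the end opposite to the testicular samples. At the sites called without caput replicate 1, where that sample took no part in the choice, its level was 79.7% against 52.2% and 50.3% in replicates 2 and 3 at higher sites, and 33.1% against 53.3% and 57.4% at lower sites. Replicate 1 was the caput sample farthest from the testicular mean at 972 of these 1180 higher sites and 338 of these 475 lower sites.

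The median difference of pooled reads was 42.4 points at higher sites and -37.0 points at lower sites, against 0 over all sites. Differences above 50 points occurred at 460 higher and 93 lower sites, and differences above 70 points at 39 and 1. At 2824 autosomal sites no testicular read was methylated, and the caput samples averaged 4.46%, 2.33% and 2.20% there. Of these 2824 sites 89 were called higher, beside 11.6% of all autosomal sites. The 2824 sites had a median of 104 testicular reads over the group, at which a floor of 3 reads stands for 2.88%. Intervals and floors from reads cover counting error only. At 870 sites every testicular read was methylated, and the caput levels were 88.6%, 93.9% and 94.96%. Of these 870 sites 72 were called lower, beside 5.28% of all autosomal sites. Both sets were chosen at an end of the testicular scale, so other samples could differ in 1 direction only, and the cauda samples had 0.851%, 0.851% and 0.723% in the former and 97.98%, 97.98% and 98.02% in the latter.

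The called sites were spread unevenly over the gene annotation. Called higher were 137 exon sites (16.5%), 903 intergenic sites (17.4%), 256 intron sites (9.10%) and 312 promoter sites (6.14%). Called lower were 43 exon sites (5.17%), 326 intergenic sites (6.28%), 267 intron sites (9.5%) and 99 promoter sites (1.95%). Introns were the only annotation class with more lower than higher sites, and without caput replicate 1 they had 189 higher and 167 lower. Without that sample, exons had 111 higher and 23 lower sites, intergenic DNA 678 and 220, and promoters 202 and 65. In CpG-dense DNA 264 sites (7.05%) were higher and 41 (1.09%) lower (200 and 34 without caput replicate 1), and in repeats 259 (11.7%) and 56 (2.54%), or 178 and 41 without it.

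Called sites were nearly all higher below 20% in cauda and nearly all lower above 80%, with both directions between. Of the 6365 sites below 20% in cauda, 1236 (19.4%) were called higher and 1 lower, and without caput replicate 1 the counts were 928 and 1. Of the 6098 sites above 80%, 7 were called higher and 649 (10.6%) lower, and without caput replicate 1 the counts were 10 and 395. Between 20% and 80%, 365 sites (25.1%) were higher and 85 (5.85%) lower, and without caput replicate 1 the counts were 242 and 79. A site near 0 can only rise and a site near 100% can only fall, which limits the direction of calls in the lowest and highest classes.

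Among sites with little methylation in cauda, those outside promoters rose most often. At 205 exon sites below 20% in cauda, levels were 52.7%, 29.0% and 26.4% in the caput samples and 4.15%, 4.84% and 5.34% in the testicular samples, and 115 sites (56.1%) were called higher. Intron sites of this kind had 46.3%, 24.5% and 23.6% in caput against 5.43%, 6.68% and 6.96%, with 202 of 402 (50.2%) called higher. Intergenic sites had 41.5%, 22.2% and 21.6% against 4.61%, 6.20% and 5.13%, with 681 of 1558 (43.7%) called higher. Promoter sites, by far the most numerous, had 6.91%, 3.88% and 3.74% against 1.46%, 1.60% and 1.55%, and 238 of 4200 (5.67%) were called higher. The higher sites without caput replicate 1 numbered 100 in exons, 148 in introns, 523 in intergenic DNA and 157 in promoters. Among sites above 80% in cauda, the share called lower ran from 7.61% in exons (41 of 539) to 13.4% in promoters (83 of 620). The lower sites there without caput replicate 1 were 20 in exons (3.71%) and 51 in promoters (8.23%).

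Within promoters, calls became more frequent with distance from the transcription start. Up to 200 bp from the start, 60 of 1856 sites (3.23%) were called higher and 19 (1.02%) lower. Beyond 1000 bp, up to 2000 bp, 102 of 779 sites (13.1%) were higher and 37 (4.75%) lower. The counts without caput replicate 1 were 40 higher and 12 lower in the nearest class, and 66 and 22 in the farthest. The mean difference was 1.23 points in the nearest class and 4.17 points in the farthest, or 0.731 and 2.94 points without that sample. Over all autosomal sites, the share called lower fell with the number of CpGs in the 200 bp around a site. It was 8.41% at 1 to 3 CpGs, 7.27% at 4 to 6, 5.03% at 7 to 10, 0.592% at 11 to 20 and 0 at 21 or more. In the same order, the shares without caput replicate 1 were 5.30%, 4.64%, 3.35%, 0.444% and 0. The share called higher had no single trend. Sites with 7 to 10 CpGs were called higher most often (14.9%), sites with 21 or more least often (1.83%, 9 of 493, and 0 lower), and sites with 1 to 3 CpGs had nearly equal shares of 8.67% higher and 8.41% lower. When caput replicate 1 was left out, these sites had 120 higher and 104 lower calls.

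Every autosome held called sites, from 10.95% of sites on chromosome 17 to 21.7% on chromosome 18. The higher sites were the majority on each chromosome, from 54.9% of called sites on chromosome 19 to 78.7% on chromosome 8. Neighbouring sites moved together. Among 2934 windows of 100 bp with at least 2 measured CpGs, 410 held a higher site and 160 a lower site, and no window held both. In 294 of the 410 windows every site was called higher, and in 91 of the 160 every site was called lower. Sites in a window often share reads, so they are not independent.

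Promoters with at least 2 called CpGs at which the groups did not overlap were ranked by the size of the difference. Of these, 59 were higher and 13 lower in caput spermatozoa, and 10 in each direction are named. Their values were used for the ranking and are given as description, with levels averaged over the separated sites of the gene.

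The promoter with the largest rise was that of Taar4, an olfactory trace amine receptor. Its 4 sites at chr10:23960885-23960917, in the coding sequence 391 to 423 bp after the transcription start, had 100%, 99.04% and 82.1% in the caput samples and 11.5%, 14.2% and 21.5% in the testicular samples. On this mean all caput samples were high and all testicular samples low, with 12 to 38 reads per site. Single Taar4 sites differed in the testicular samples, with 0%, 10.53% and 2.94% at position 23960902 and 46.2%, 26.3% and 41.2% at position 23960917. The means were 93.7% ± 10.1 and 15.7% ± 5.14 (SD, n = 3 each), a difference of 78.0 points, or 74.8 points without caput replicate 1. The adjusted p of the logistic regression was at most 6.36e-12 at the 4 sites, and the limma adjusted p ran from 0.0711 to 0.164. Cauda spermatozoa had 21.2% and corpus spermatozoa 44.2%.

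D1Pas1 and Dazl are genes of the germ line, the former coding for an RNA helicase of the testis and the latter for an RNA-binding protein needed in germ cells. The 3 sites of D1Pas1, at chr1:186967250-186967270 from -166 to -146 bp relative to the start, had 89.9%, 48.7% and 71.1% in the caput samples and 0%, 0% and 0% in the testicular samples. No methylated read was found among the 56 testicular reads of each site, so the floor of 3 reads is 5.36% over the group. The caput mean was 69.9% ± 20.6 (SD, n = 3), and 59.9% without replicate 1. The logistic regression gave adjusted p of at most 8.74e-23 and limma from 0.0282 to 0.0684. The 3 sites of Dazl, at chr17:50294187-50294229 from -593 to -551 bp relative to the start, had 76.5%, 63.8% and 47.1% in caput and 11.1%, 2.22% and 2.45% in testicular spermatozoa, at 29 to 124 reads. The means were 62.5% ± 14.7 and 5.25% ± 5.06 (SD, n = 3 each), at sites chosen for groups that did not overlap.

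Among gene bodies, the coding exon of Cald1 had the largest rise. Cald1 codes for caldesmon, an actin-binding protein. Its 7 sites at chr6:34755722-34755748 had 76.7%, 75.3% and 88.4% in the caput samples and 13.5%, 1.86% and 2.18% in the testicular samples, with 11 to 55 reads. Here caput replicate 1 lay among the caput samples, and the difference of 74.3 points was 76.0 points without it. Corpus and cauda spermatozoa had 10.2% and 0.825%, and the limma adjusted p ran from 0.0185 to 0.113. Of the intergenic falls, the largest were at chr15:36892707-36892724 and chr5:139594033-139594042. The former had 9.09%, 7.26% and 85.9% in caput against 93.5%, 97.8% and 100% in testicular spermatozoa, so caput replicate 3 stayed near the testicular range. The latter had 29.1%, 43.8% and 35.7% against 97.5%, 100% and 100%, with a caput SD of 7.35 and a difference of -63.0 points, or -59.4 points without caput replicate 1. At that locus corpus spermatozoa had 66.1% and cauda spermatozoa 98.1%.

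The DNA of these 6 loci is printed to show how the measured CpGs lie, the first 4 chosen by rank and D1Pas1 and Dazl chosen after their values were seen. Each is the plus strand of GRCm38 in lower case, with the CpGs of the sites named above in capitals. The spans are chr10:23960801-23961000 for Taar4, chr6:34755701-34755800 for Cald1, chr15:36892701-36892800, chr5:139594001-139594100, chr1:186967201-186967300 for D1Pas1 and chr17:50294101-50294300 for Dazl.
Taar4: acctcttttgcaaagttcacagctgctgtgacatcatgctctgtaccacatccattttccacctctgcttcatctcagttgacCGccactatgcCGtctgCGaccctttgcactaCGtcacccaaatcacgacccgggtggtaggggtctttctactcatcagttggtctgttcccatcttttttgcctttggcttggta
Cald1: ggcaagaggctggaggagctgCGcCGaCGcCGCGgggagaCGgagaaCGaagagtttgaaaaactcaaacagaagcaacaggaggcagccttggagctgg
chr15:36892701-36892800: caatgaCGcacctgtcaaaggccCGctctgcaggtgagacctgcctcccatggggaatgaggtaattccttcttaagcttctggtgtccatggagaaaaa
chr5:139594001-139594100: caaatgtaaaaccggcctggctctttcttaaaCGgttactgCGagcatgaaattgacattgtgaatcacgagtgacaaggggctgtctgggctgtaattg
D1Pas1: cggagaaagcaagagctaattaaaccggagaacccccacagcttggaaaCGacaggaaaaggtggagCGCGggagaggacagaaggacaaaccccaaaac
Dazl: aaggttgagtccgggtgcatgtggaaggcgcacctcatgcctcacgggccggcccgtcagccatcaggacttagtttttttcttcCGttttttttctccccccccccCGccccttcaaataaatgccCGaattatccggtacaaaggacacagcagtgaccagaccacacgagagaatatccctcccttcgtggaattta
In Cald1 all 7 CpGs of the window were measured and lie within 27 bp. Taar4 had 6 CpGs in 200 bp, Dazl 11, D1Pas1 5 in 100 bp, and the windows on chromosomes 15 and 5 had 2 and 4. The motif CCGG, the same on both strands, was present in 4 of the 6 and was missing from the Cald1 and chromosome 15 windows. Of the 9404 windows of 100 bp with a measured site, 76.8% held it, and their median was 3 CpGs and 50% GC. The 6 sequences had a GC content from 46% to 60%. A match is a description of the sequence and says nothing of an enzyme or factor at that place.

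The other ranked promoters with higher methylation in caput spermatozoa belonged to genes of several roles. Tex101, a surface glycoprotein of germ cells, had 82.6%, 33.9% and 59.4% in caput and 0%, 0% and 4% in testicular spermatozoa. The protocadherin gene Pcdhb1 had 84.6%, 53.4% and 71.8% against 3.13%, 0.952% and 1.26%. Prickle2, of planar cell polarity, had 94%, 48.1% and 40.8% against 2.19%, 5.05% and 2.78%. In each of them caput replicate 1 was the highest sample, and by the choice of loci no caput value reached the testicular range. St7 and BC048507 were the deepest of the set, with 75 to 157 and 70 to 168 reads per site. St7 had 92.1%, 57.4% and 55.3% against 6.79%, 13.7% and 5.63%, and BC048507 had 84.4%, 51.1% and 54.5% against 2.35%, 3.39% and 3.99%. At the adaptor gene Sh2d3c the levels were 100%, 65.5% and 47.8% against 9.04%, 0% and 3.91%. Adamts2, a procollagen peptidase, had the widest caput range, with 90.8%, 25% and 70.8% against 0%, 1.92% and 4.35%.

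**Figure D3:**
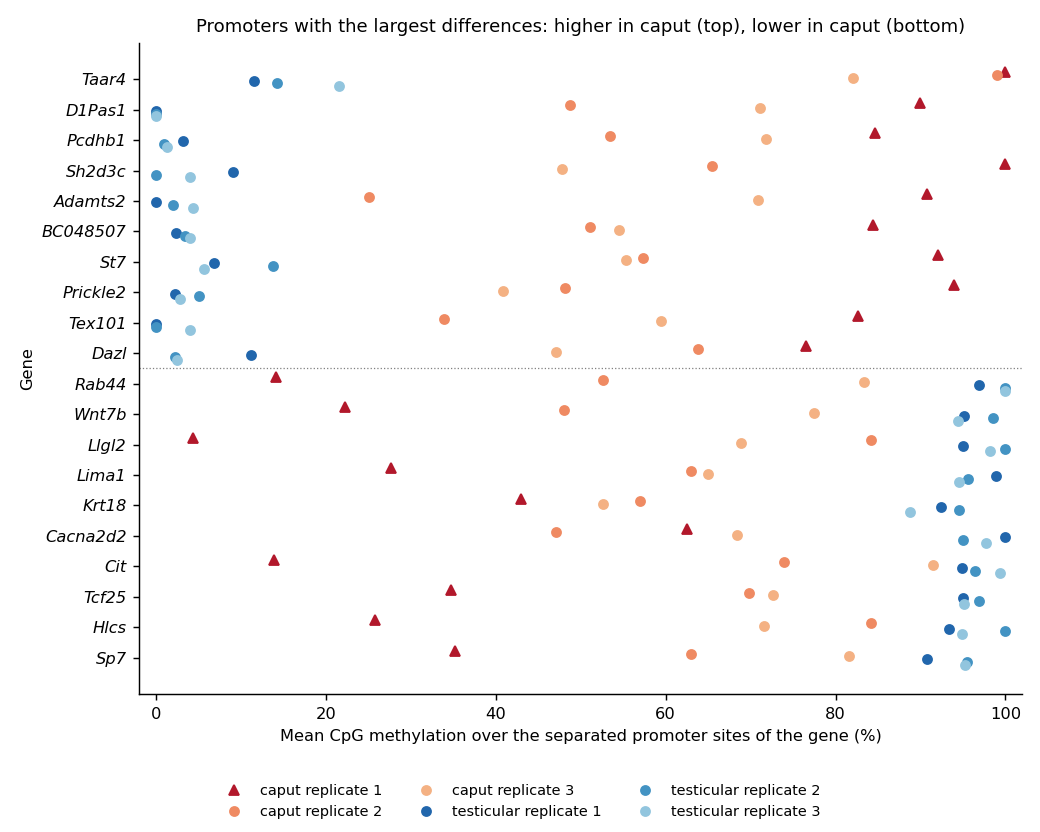
Mean methylation (%) over the separated sites of the 10 promoters with the largest rise (top) and the 10 with the largest fall (bottom) in caput spermatozoa, 1 point per sample and triangles for caput replicate 1. Testicular samples lie at or below 21.5% in the top set and at or above 88.8% in the bottom set, and caput samples lie between them and the other end of the scale.

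Among the promoters with lower methylation in caput spermatozoa, that of Krt18, a keratin of simple epithelia, had 5 sites with 43.0%, 57.0% and 52.7% in the caput samples and 92.4%, 94.6% and 88.8% in the testicular samples. Its caput samples were close together, with means of 50.9% ± 7.16 and 91.9% ± 2.92 (SD, n = 3 each), and 4 of the 5 sites were called without caput replicate 1. Wnt7b, a secreted ligand, had 22.3%, 48.0% and 77.4% against 95.2%, 98.5% and 94.4%. Lima1, an actin-binding protein, had 27.7%, 63.0% and 65.0% against 98.9%, 95.6% and 94.5%. Tcf25 had 34.8%, 69.8% and 72.7% against 94.96%, 96.9% and 95.2%, at 150 to 256 reads per site. For Wnt7b, Lima1 and Tcf25, caput replicate 1 was the lowest sample by a wide margin, and 1 of the 2 Tcf25 sites was called without it, as at Sp7.

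Several falls rested on caput replicate 1. Llgl2, a regulator of epithelial polarity, had 4.35%, 84.1% and 68.9% in caput against 95%, 100% and 98.2% in testicular spermatozoa. Cit, the citron kinase of cell division, had 13.8%, 74.0% and 91.5% against 94.9%, 96.5% and 99.4%. Hlcs, which attaches biotin to carboxylases, had 25.8%, 84.1% and 71.6% against 93.4%, 100% and 94.9%. In these 3 promoters 0 of the separated sites were called without caput replicate 1. Cit and Hlcs each had 2 separated sites among 4 measured promoter sites. Differences without caput replicate 1 were -21.2 points at Llgl2 (-45.3 with it), -14.2 at Cit (-37.2) and -18.2 at Hlcs (-35.6). Rab44 (14.1%, 52.6% and 83.3% against 96.9%, 100% and 100%) and the osteoblast factor Sp7 (35.2%, 63.0% and 81.5% against 90.7%, 95.5% and 95.3%) also had their lowest value in that sample, and without it their differences were -31.0 points (-48.9 with it) and -21.6 points (-33.9). Cacna2d2, a calcium channel subunit, had 62.5%, 47.1% and 68.4% against 100%, 95% and 97.7%, with its lowest value in replicate 2. In cauda spermatozoa all 10 of these promoters had means from 91.0% to 98.8%.

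Other gene bodies showed rises and falls of like size, with 73 genes ranked higher and 38 lower. P2ry2, a nucleotide receptor, had exon levels of 95.7%, 72.9% and 30.0% in caput and 0%, 3.06% and 0% in testicular spermatozoa. Magi1, a scaffold of cell junctions, had exon levels of 89.4%, 46.3% and 63.2% against 4.45%, 6.45% and 1.87%. Exon sites of Hhipl2 had 88.7%, 65.3% and 48.2% against 8.85%, 2.67% and 5.28%. The caput samples were far apart in each gene, and by the choice of loci none reached the testicular range. An intron of 1700029J07Rik had 94.4%, 77.3% and 55.4% against 12.5%, 5.26% and 6.07%.

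The 5 gene bodies with the largest falls all had their sites in introns. Slc30a2, a zinc transporter, had 0%, 46.2% and 80% in the caput samples and 100%, 94% and 100% in the testicular samples. Rnf220, a ubiquitin ligase, had 6.25%, 62.5% and 39.0% against 92.5%, 82.9% and 100%. Snx29 had 10.8%, 49.5% and 55.7% against 93.9%, 98.6% and 86.0%. In these genes caput replicate 1 was at or below 10.8%, and replicates 2 and 3 lay between it and the testicular samples. Tunar had 18.2%, 61.4% and 42.9% against 92.9%, 94.2% and 95.8%, and the magnesium transporter gene Slc41a2 had 2.78%, 71.0% and 50% against 93.2%, 98% and 92.9%. With caput replicate 1 left out, the difference was -34.9 points at Slc30a2 (-55.9 with it) and -34.2 points at Slc41a2 (-53.4).

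Between genes, 145 windows were ranked higher and 41 lower. The leading rise, at chr6:13134312-13134314, had 100%, 65.2% and 92.3% in caput and 25.8%, 3.17% and 7.14% in testicular spermatozoa. The next, at chr16:17137533-17137537 in an exon of the pseudogene Gm6440, had 100%, 45.5% and 81.6% against 0%, 6.45% and 7.14%. A site group at chr2:75508939-75508956 had 100%, 66.2% and 50.9% against 0%, 2.92% and 6.32%. Caput replicate 1 was fully methylated at all 3 of these loci. The third ranked fall, at chr4:134258654-134258663, had 9.79%, 37.7% and 66% against 92.1%, 97.5% and 100%.

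In 10 of the 12 sites called by limma every testicular read was alike, all methylated or all unmethylated. An intergenic site at chr8:19132464 had 100%, 100% and 100% in caput and 70%, 70.3% and 70.4% in testicular spermatozoa (limma adjusted p 2.45e-05). A site in the promoter of Wnt5a, a secreted signalling protein of development, at chr14:28510971 had 40%, 25% and 26.3% against 0%, 0% and 0% (limma adjusted p 0.00928). A site in the promoter of Rnd2, a small GTPase, at chr11:101463106 had 36.4%, 41.7% and 58.3% against 100%, 100% and 100% (limma adjusted p 0.00859). None of these 3 sites had overlapping groups.

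Lists of genes with known methylation or cell type were read at their promoter sites, against all 5082 promoter sites, of which 6.14% were higher and 1.95% lower with a median difference of 0. Of 55 germline genes 10 had a site, and 14 of their 19 sites were called higher and 0 lower (13 higher without caput replicate 1), with a median difference of 56.3 points. D1Pas1, with 3 of these higher sites, was picked by the study from these samples, and the lists were chosen with earlier results known. These counts are therefore no independent evidence. The group means were 53.6% ± 12.5 and 12.0% ± 0.66 (SD, n = 3 each). Beside Dazl, D1Pas1 and Tex101, the called sites belonged to Tdrd6, a Tudor protein of germ granules, Meioc, a meiosis gene, and Tex14 with Rad51c, which share 3 sites. Tdrd6 had 81.6%, 42.8% and 73.8% in caput against 10.3%, 31.2% and 23.1%, and Meioc 90.3%, 83.7% and 71.4% against 42%, 7.69% and 22.2%. The shared sites of Tex14 and Rad51c had 94.7%, 50.7% and 52.6% against 13.0%, 13.3% and 15.5%. Smc1b, Mei1 and Prdm9 had no called site.

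Genes active in spermatids had few sites. Of 41 such genes 4 had a site, and 0 of 5 sites were called in either direction, with a median difference of 0. Over all promoter sites 6.14% were higher and 1.95% lower, and with so few sites 0 calls cannot be told apart from these shares. Tssk6, a kinase of late spermatids, had no methylated read in any caput or testicular sample. With 67 to 70 caput reads and 78 to 79 testicular reads over the groups, the floor of 3 reads was 4.48% and 3.85%. Adam2, of the sperm surface, had 6.45%, 0% and 25.5% in caput and 0%, 0% and 0% in testicular spermatozoa.

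Markers of other cell types had few sites. The epididymal epithelium list had sites in 2 of 50 genes, Krt18 and Krt19, with summary levels of 35.8%, 51.6% and 43.9% in the caput samples and 86.8%, 89.5% and 84.5% in the testicular samples. All 6 of its sites were lower in caput, 5 of them also without caput replicate 1, with a median difference of -45.5 points. Krt19 had 0%, 25% and 0% in caput and 58.6%, 64.2% and 63.1% in testicular spermatozoa. The leukocyte list had 1 site in 1 of 25 genes, Runx3, with 25%, 62.8% and 47.6% against 97.4%, 100% and 100%, called lower with and without caput replicate 1. The stroma, muscle and endothelium list had 1 site in 1 of 20 genes, Cald1, with 94.4%, 97.9% and 89.4% against 100%, 95.7% and 93.2%, not called. Their part in the result was not tested.

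Developmental regulators, which are mostly unmethylated in sperm, had median differences at or near 0. HOX genes had sites in 18 of 39 genes, with 13.3%, 6.97% and 4.89% in the caput samples and 6.32%, 5.20% and 3.47% in the testicular samples. Of these 52 sites 4 were called higher and 1 lower (3 and 1 without caput replicate 1), with a median difference of 0.64 points. Hoxc5 held 3 of the higher sites, and over its promoter the levels were 49.2%, 19.9% and 18.7% against 3.57%, 13.1% and 2.73%. The lower site belonged to Hoxd4, with 57.1%, 51.6% and 19.05% against 97.8%, 94% and 96%. Other developmental genes had 163 sites in 46 of 103 genes, with 9.30%, 5.53% and 6.51% in caput and 3.003%, 2.56% and 2.35% in testicular spermatozoa. Of these sites 10 were higher and 2 lower (8 and 2 without caput replicate 1), and the median difference was 0. The signalling gene Bmp4 had promoter levels of 42.2%, 23.9% and 22.5% against 7.19%, 3.46% and 0.575%, and Irx1, a homeobox gene, had 85.7%, 66.7% and 72.7% against 0%, 0% and 9.09%.

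Imprinted genes and genes of DNA methylation were little covered. Of 35 imprinted genes 3 had 11 promoter sites, with 28.3%, 6.17% and 10.1% in caput and 0%, 0.84% and 4.80% in testicular spermatozoa. Of these sites 3 were called higher and 0 without caput replicate 1. They belonged to Mcts2, at 68.2%, 22.6% and 16.9% against 0%, 1.71% and 5.61%. Of 15 genes of DNA methylation and demethylation 3 (Tet1, Dnmt3a and Dppa3) had 6 sites, 2 of them called higher with and without caput replicate 1. They lay near the outer edge of the 2000 bp promoters of Tet1, a dioxygenase that oxidises methylcytosine, and a site 181 bp from a start was not called. Over the 3 sites the levels were 84.2%, 52.6% and 53.9% against 24.3%, 30.4% and 25.05%. Dnmt3a, a methyltransferase, stayed at 95.5%, 100% and 97.8% against 96.7%, 96.9% and 97.1%. The site of Dppa3, a factor that protects methylation in the zygote, had 22.9%, 8.82% and 3.57% against 1.06%, 0% and 0% and was not called.

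Genes named by the study for their methylation were read at all their sites, in gene bodies and promoters, which need not lie in the regions the study followed. Of 14 genes 8 had a site, with 10 of 26 sites called higher and 7 lower (10 and 6 without caput replicate 1), beside 11.6% and 5.28% of all autosomal sites. All but Apoa1, which had no site, were picked by the study from these samples, so the counts are no independent evidence. All 6 sites of Susd1 were lower, at 8.20%, 29.4% and 20.9% in caput against 48.6%, 67.5% and 69.6% in testicular spermatozoa. Notch2, a receptor of cell fate, had 70.5%, 87.7% and 68.5% against 96.0%, 93.5% and 93.8%, with 1 lower site that was not called without caput replicate 1. For Notch2, Nfatc2 and Ankrd36 the measured sites lay outside the regions that the study followed, so nothing can be read from them about those regions. The measured sites of Capn2 and Ldb3 were not called.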

How the data were processed

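Counts of methylated reads and coverage per CpG of the table the authors deposited were used for 6 samples of RRBS, per the labels caput and testicular spermatozoa. Per the submitters' processing notes, FastQC, Trim Galore 0.4.1, Bismark 0.16.1 and methylKit were used. The deposited comparison tables hold methylation differences, p-values and q-values and were not used. Members and lists were chosen with earlier results of these data known. Each of 14149 sites was fitted by logistic regression, with likelihood-ratio tests and Benjamini-Hochberg adjustment over all sites, and counted on autosomes at adjusted p under 0.01 and a pooled difference above 25 points. Group means were compared by 2-sided exact permutation tests. Alternatives were an overdispersion term, limma 3.58.1 (R 4.3.3), a replicate block, stricter thresholds, at least 20 reads, strands summed, sex chromosomes included, medians, pooled reads, promoters of 1000 bp, single caput samples and each sample left out. Code was tested on simulated data. Named loci were those with at least 2 CpGs called and separated between groups, ranked by mean difference: 10 promoters, 5 gene bodies and 3 intergenic windows of 100 bp per direction. Gene models were GENCODE M21 (GRCm38), and soft-masked bases of that genome counted as repeats. Lists read at promoters covered germline, spermatid, imprinted, HOX and other developmental genes, methylation genes, epididymal epithelium, leukocytes, and stroma with muscle and endothelium. Genes named by the study were read at all their sites. Python 3.11.15, numpy 2.4.6, pandas 2.3.3, scipy 1.17.1, matplotlib 3.10.9 and samtools 1.23.1 were used.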

Additional observations from a re-analysis of the deposited data

How the results depend on the processing

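The counts of called sites depended on the test and on 1 sample. Against 1608 higher and 735 lower sites, limma gave 8 and 4 with a pseudo-percent of 1, and 2 and 3 with a pseudo-percent of 5. Limma without caput replicate 1, chosen after seeing the data, gave 20 and 17. The overdispersion F test gave 0 and 0, with 2411 sites at an unadjusted p under 0.05. In simulated reads with 200 of 14149 sites changed and no added spread between samples, it found 0 of the changed sites. Those settings differ from these data, so the simulation cannot tell why the test gave 0 here. Differences above 40 points gave 923 and 297, and at least 20 reads per sample gave 934 and 432 among the 7995 sites left of 13917. Caput replicate 1 alone gave 1294 lower sites. Leaving out each sample gave 1180 to 1812 higher and 475 to 909 lower sites, the lowest without caput replicate 1. With medians over sites in place of means, 3 differences were opposite in sign to the means. They were -2.96 in exons (exact permutation p 0.1), -2.98 in intergenic DNA (exact permutation p 0.3) and -7.50 in DNA that was not CpG-dense (exact permutation p 0.1). Medians differed by 0 in promoters, in CpG-dense DNA and at sites below 20% in cauda, by 14.9 points over all autosomal sites and 22.9 in unique sequence, by -3.72 in introns and by 0.114 in repeats (exact p 0.9). The sum of all reads gave an autosomal difference of 1.74 points against 3.19, and 1.09 against 2.82 in unique sequence (exact p 0.5). The cause was not tested. Same-numbered samples had residual correlations of -0.0293, -0.00866 and -0.0135 and were taken as unpaired, although the labels do not say which mice they share, and the replicate block gave 1608 and 734. The block difference of the autosomal mean was 3.19 points (exact sign-flip p 0.25). Of the alternatives for counts and group means, 135 kept their direction with counts within 1.5 times the main count, though some differences changed in size, 14 counts moved further (the 20-read counts from fewer sites), 3 differences reversed and 3 became 0. The signs of named loci could not turn when a sample was left out, since the loci were chosen for groups that did not overlap. Without caput replicate 1 the difference was -14.2 points at Cit (-37.2 with it), -21.2 at Llgl2 (-45.3), -18.2 at Hlcs (-35.6), -31.0 at Rab44 (-48.9), -21.6 at Sp7 (-33.9), -34.9 at Slc30a2 (-55.9) and -34.2 at Slc41a2 (-53.4). Depth of 10 reads or more limits a single site, pools of mice hide variation between animals, and RRBS reads only part of the genome.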
